A study of Arabidopsis thaliana with 108 samples.

Results

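Peak lists of chromatin immunoprecipitation sequencing (ChIP-seq) were examined at 7 Arabidopsis thaliana genes out of 27444 protein-coding genes. The genes are the JMJ14-group histone demethylases JMJ14 (AT4G20400), JMJ15 (AT2G34880), JMJ16 (AT1G08620), JMJ18 (AT1G30810) and JMJ19 (AT2G38950), and the transcription factors NAC050 (AT3G10480) and NAC052 (AT3G10490). They were taken as a named set and not by any measured value. At each gene, the body and 1 kb upstream formed the span, and the length of the span under peaks, in bp, was the measurement in each of 46 lists.

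JMJ14 is a Jumonji-domain enzyme that removes methyl groups from lysine 4 of histone H3, and plants without it flower early. H3K4me3, the trimethylated form, marks the start of active genes, and H3K27me3 is the Polycomb mark of repressed genes. NAC050 and NAC052 are NAC-domain factors that associate with JMJ14 and bind DNA, and the TELOMERE REPEAT BINDING proteins TRB1, TRB2 and TRB3 bind the telobox, a short motif related to the telomere repeat. JMJ15, JMJ16 and JMJ18 are close relatives of JMJ14 with the same substrate: JMJ16 is known for restraining leaf senescence and JMJ18 for promoting flowering from the phloem. JMJ19 belongs to the same group by sequence.

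All plants were of the Col-0 ecotype. FLAG ChIP-seq used lines with FLAG-tagged genomic JMJ14 (2 lists) or TRB1, TRB2 or TRB3 (4 lists each) under their own promoters, from floral tissue of plants aged 5 to 6 weeks. Myc ChIP-seq used leaves, aged 3 to 4 weeks, of plants with Myc-tagged genomic JMJ14, alone or together with a TRB-ZF transgene (5 lists). A TRB-ZF protein is a TRB with a FLAG tag and the artificial zinc finger ZF108, which was designed to bind the promoter of FWA. TRB-ZF plants carry it in the fwa epiallele, in which FWA lacks DNA methylation and flowering is late, and the methods say that T2 lines with early flowering were used. Histone marks were profiled in seedlings aged 2 to 3 weeks of Col-0, of the triple T-DNA mutant trb1/2/3 and of the T-DNA mutant jmj14-1 (1 list, H3K4me3 only). They were also profiled in fwa and in TRB1-ZF, TRB2-ZF and TRB3-ZF plants, for which the labels give floral tissue of 5 to 6 weeks and the methods give leaves. The FLAG-tagged TRB transgenes were put into plants mutant for the same TRB, per the study's text. Whether the lines with tagged JMJ14 still hold the endogenous gene is not given in the sources used here. Lines and cultures behind the replicates are not stated, so p-values measure the spread between these libraries.

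The 14 FLAG lists held 3279 to 22509 peaks, the 5 Myc lists 296 to 1032, the 15 H3K4me3 lists 16030 to 17764 and the 12 H3K27me3 lists 10198 to 14323. The lists give no read depth, so depth is unknown, and a gene without a peak is only a gene at which none was called. FWA had H3K4me3 peaks in all 10 lists of fwa and TRB-ZF plants and in none of the 5 lists of Col-0 and the mutants. Some libraries went against their labels. In 4 of the 5 Myc lists the deposited peak names give another background than the label, and they are called here by their labels. FLAG-TRB2 replicate 4 covered 96.8% of the coding region of TRB3 and none of that of TRB2, and FLAG-TRB3 replicate 4 had no peak at TRB3. FLAG-TRB replicates 3 and 4 carry the same numbers in their peak names as replicates 1 and 2. What these numbers stand for is not stated, so lists of a TRB with the same number may share a source. The H3K27me3 lists labelled TRB1-ZF replicate 2 and TRB2-ZF replicate 2 were identical, so they were counted as 1 list, whose line cannot be told apart.

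In TAIR10, JMJ14 lies on chromosome 4 from 11008558 to 11013860 on the plus strand, with its start codon 446 bp and its stop codon 5030 bp from the gene start. JMJ15 lies on chromosome 2 from 14711880 to 14716634 on the minus strand and is annotated from start codon to stop codon. JMJ16 occupies 2736656 to 2743881 of chromosome 1, plus strand, and JMJ18 occupies 10936765 to 10942292 of the same chromosome, minus strand. JMJ19 is on chromosome 2 from 16260803 to 16265270, plus strand. NAC050 (3264194 to 3267695) and NAC052 (3267825 to 3271202) are tandem neighbours on the plus strand of chromosome 3, so the NAC052 span takes in 871 bp of NAC050 and a peak there counts for both. Reads had been mapped uniquely without mismatches, and 99.7% of the 50-base windows of each NAC span, and 100% of those of the other 5 spans, occurred once in the genome. The 1 kb upstream of JMJ19 holds 451 bp of the phosphate transporter gene PHT1;4, that of JMJ14 holds 519 bp of AT4G20390, and that of JMJ18 holds 645 bp of AT1G30814. That of JMJ16 holds 164 bp of AT1G08610, a minus-strand gene that starts at 2735819. THA1 overlaps the last 121 bp of JMJ16, and AT1G30800 lies within JMJ18.

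Teloboxes, searched as AAACCCTA on both strands, lay under the TRB peaks of 4 of the genes. Of the 8 found in the spans, 5 are printed with their surroundings, at least 1 for each of these genes. Summits of TRB peaks lay near those not printed as well. They stood within 100 bp in 6 lists at JMJ16 positions -913 and 561, and in 4 lists at NAC052 position -25. Capitals mark the motif or its complement TAGGGTTT.
JMJ14, chr4:11008868-11008897, plus strand, in an intron 325 bp after the gene start: tctgggttttttTAGGGTTTcgaaaacggc
JMJ16, chr1:2735813-2735842, plus strand, at position -828 from the gene start: tgagatgataagTAGGGTTTatcctaaatt
JMJ16, chr1:2737308-2737337, plus strand, untranslated exon 667 bp after the gene start: caatttcaccagAAACCCTAaatcacaaga
NAC050, chr3:3264126-3264155, plus strand, at position -53 from the gene start: agtaacatttttTAGGGTTTtattactgca
NAC052, chr3:3268027-3268056, plus strand, untranslated exon 217 bp after the gene start: gggaaattgagaAAACCCTAgaacaagtac

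At JMJ14, 11 of the 12 TRB lists had a peak over the telobox, and the summit lay a median of 13 bp from it, within 100 bp in all 11. At the printed upstream JMJ16 telobox the median was 29 bp in 11 lists, again within 100 bp in all 11. The NAC050 telobox was under a peak in 10 lists, with a summit within 100 bp in 6. The printed NAC052 telobox was under a peak in 11, with a summit within 100 bp in 4. JMJ16 has 4 such motifs and NAC052 has 2, whereas the spans of JMJ15, JMJ18 and JMJ19 have none. Within 1 kb either side of the gene start, 4 of the 7 genes held a telobox, against 32.3% of all protein-coding genes. Over whole lists, a telobox stood within 250 bp of 19.8% to 54.7% of the summits in the TRB lists and of 19.9% and 19.8% of those in the FLAG-JMJ14 lists, so its presence at a summit does not set the TRB lists apart at all list lengths.

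The motif CTTGNNNNNCAAG, known as a binding site of NAC050 and NAC052 and equal to its own complement, stood within 250 bp of 26.1% and 25.2% of the summits in the FLAG-JMJ14 lists and of 3.12% to 7.08% of those in the TRB lists. Among the 7 spans, those of NAC050 and NAC052 held it, 2 and 1 times. None of the 7 genes held it within 1 kb of the gene start, against 7.31% of protein-coding genes. The copies are shown because they stand in introns with like surroundings in both tandem genes, outside every FLAG peak.
NAC050, chr3:3265728-3265757, plus strand, 1549 bp after the gene start: atcatctctCTTGATTCACAAGatattata
NAC050, chr3:3265891-3265920, plus strand, 1712 bp after the gene start: aaggtctctCTTGATTCACAAGatatctaa
NAC052, chr3:3269471-3269500, plus strand, 1661 bp after the gene start: atcatttctCTTGTTTCACAAGatattata

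FLAG-JMJ14 had peaks at 6 of the 7 genes in both lists, and JMJ18 had none. Of all protein-coding genes, 18% had a peak in both lists. The genes differed widely in where the peak lay, and the count was 4 where a summit had to fall inside the span (JMJ14, JMJ15, NAC050 and NAC052), an alternative chosen after seeing the data. A -log10 q of at least 10, a stricter threshold, also left 4, but not the same genes. JMJ15 dropped out, and JMJ19, whose strongest FLAG-JMJ14 summits lay over PHT1;4, took its place. The share of all protein-coding genes under either rule is not given here.

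**Figure D1:**
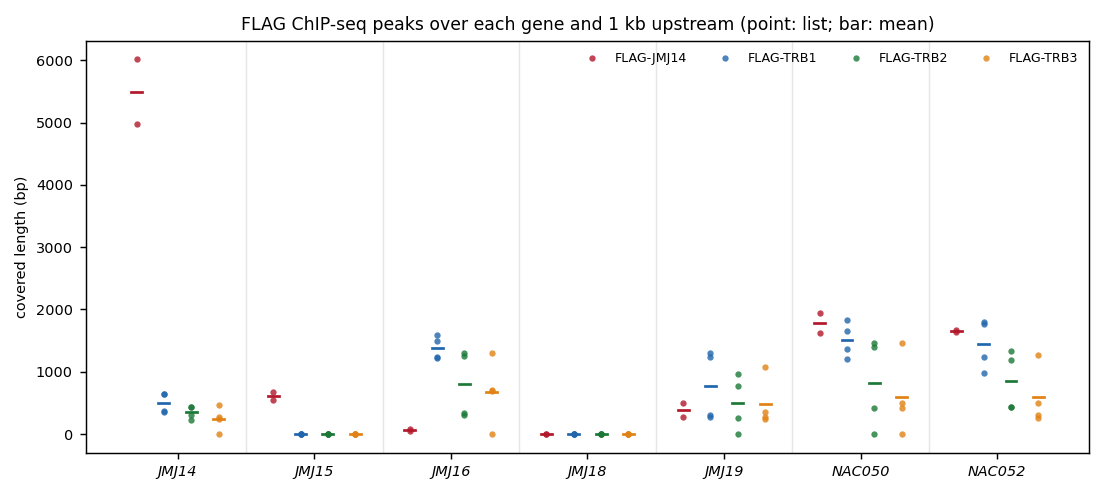
Length in bp under FLAG peaks over each gene and 1 kb upstream (y axis) for the 7 genes (x axis); each point is 1 list and each bar the mean of a factor's lists. JMJ14 reached 4971 and 6012 bp in the FLAG-JMJ14 lists, no gene had more than 1941 bp in any other case, JMJ15 had peaks in the FLAG-JMJ14 lists only, and JMJ18 in none.

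NAC050 and NAC052 carried the longest FLAG-JMJ14 peaks apart from JMJ14 itself. At NAC050, 1619 bp lay under peaks in the first list and 1941 bp in the second, and at NAC052 the lengths were 1666 and 1639 bp. Each of these lengths was above that of at least 98.5% of protein-coding genes in the same list. The summits over the 5′ end of NAC050 stood 283 and 287 bp after the gene start, in a coding exon, with folds over background of 4.82 and 5.07. Those of NAC052 stood 305 and 285 bp after its start, also in a coding exon, with folds of 5.98 and 3.88. Positions thus agreed within 20 bp between replicates, while the strongest fold at NAC052 ranked at the 97.3rd percentile of peaks in replicate 1 and at the 80.3rd in replicate 2. Weaker summits lay further in, at 1009 and 1078 bp in NAC052 and, in replicate 2 only, at 1056 bp in NAC050. Another pair, 3305 and 3264 bp from the NAC050 start, lay in the untranslated 3′ end of NAC050 and belongs to both spans. A last pair stood upstream of NAC050, at positions -873 and -939.

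JMJ15 was the one gene with FLAG-JMJ14 peaks in both lists and no peak in any of the 12 TRB lists, a pattern that 1.96% of protein-coding genes shared. Its peaks covered 667 and 551 bp. In each list, one peak spanned the gene start, with summits at positions -43 and -76, and the other lay in a coding exon with summits 1375 and 1416 bp inside. The folds were modest, 2.56 and 2.61 at the gene start, near the 43.8th and 47.9th percentiles of their lists, and neither peak reached a -log10 q of 10.

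At JMJ16 and JMJ19, the FLAG-JMJ14 peaks belonged as much to a neighbour. The JMJ16 peaks covered only 82 and 55 bp at the 3′ end, where THA1 overlaps, with summits beyond the gene. The JMJ19 peaks covered 280 and 492 bp, all upstream, and ran from positions -2344 and -2300 to positions -721 and -509, with the strongest summits, at -1319 and -1289, over PHT1;4. Peaks restricted to the gene body therefore left JMJ19 without one, and an overlap of at least 100 bp left JMJ16 without one.

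**Figure D2:**
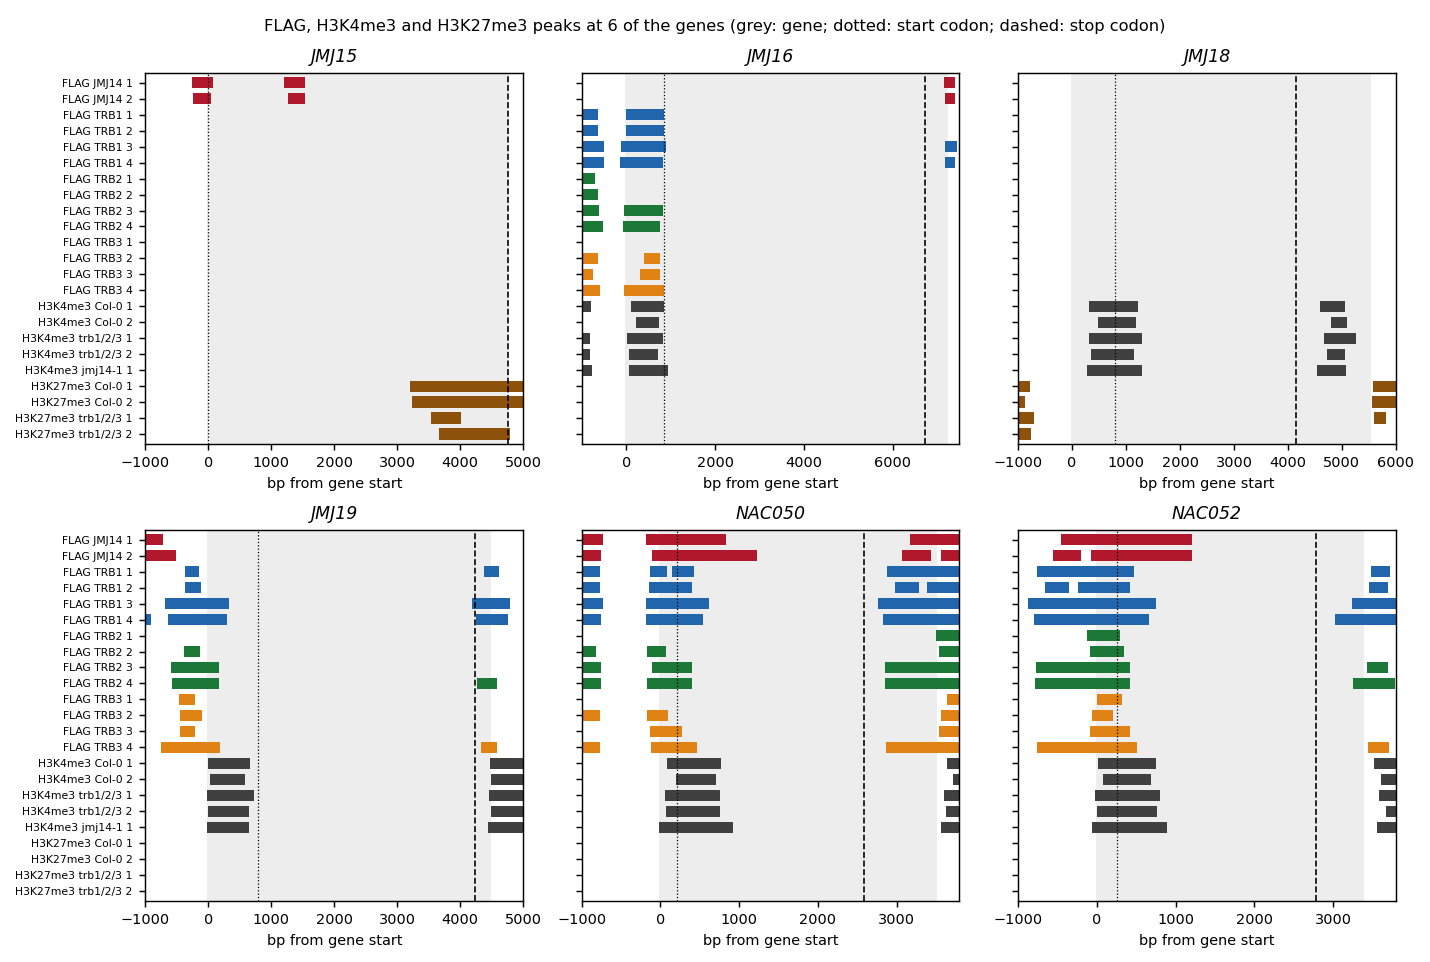
Peaks at 6 of the genes by distance in bp from the gene start (x axis), with 1 row for each FLAG list and for each histone-mark list of the seedlings; grey is the gene, the dotted line the start codon and the dashed line the stop codon. Red FLAG-JMJ14 bars lie over the start of JMJ15, NAC050 and NAC052, only at the far end of JMJ16 and upstream of JMJ19, and the H3K27me3 of JMJ15 lies at its 3′ end.

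The JMJ14 locus was unlike the rest. FLAG-JMJ14 covered 4971 bp of its 6303 bp span in replicate 1, as 2 intervals, and 6012 bp in replicate 2, as 1 interval. The outer edges were alike in both lists: they lay at positions -1466 and -1472, inside AT4G20390, and 96 and 19 bp before the stop codon. No FLAG-JMJ14 peak covered any of the 1 kb after the stop codon. The intervals held 14 and 12 summits, while no interval over the NAC genes held more than 3. The strongest, 347 and 379 bp after the gene start in an intron, had a fold of 4.68 in replicate 1 (89.4th percentile) and 8.23 in replicate 2 (99.9th percentile). Summits within AT4G20390, at positions -855 and -840, followed with folds of 3.72 and 7.95.

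The tagged lines carry genomic JMJ14 with about 2 kb before the 5′ UTR, or up to the next annotated gene, and reads from the transgene align to the locus. Taking the cloned span from the end of AT4G20390 to the stop codon (5512 bp), FLAG-JMJ14 covered 80.8% and 99.7% of it, and the TRB lists covered at most 11.7%. The covered stretch began within AT4G20390, farther upstream than that span. The genes of the other tagged proteins were measured in the same way. FLAG-TRB1 covered 85.5%, 54.2%, 97.8% and 88.3% of the cloned span of TRB1 in its 4 lists, whereas the TRB2 and TRB3 lists covered 11% to 18.5%. FLAG-TRB2 covered 85.8%, 28.2%, 94.5% and 17.8% of that of TRB2, so replicates 1 and 3 were high, and the others lay within the 0% to 32.1% of the TRB1 and TRB3 lists. FLAG-TRB3 covered 14.2%, 92.4%, 24.3% and 0% of that of TRB3, and FLAG-TRB2 replicate 4 covered 87.7%. In the FLAG lists, broad cover that ended no more than 20 bp after the stop codon was seen at the gene whose tagged copy the line carries. This was not so in every list, and once it was under another label. An H3K27me3 list whose label names no JMJ14 transgene, TRB2-ZF replicate 1, also covered 72.6% of the JMJ14 cloned span. It covered 0 bp of the 1 kb after the stop codon. How much of the JMJ14 signal comes from the transgene was not tested, since the lists hold no reads.

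**Figure D3:**
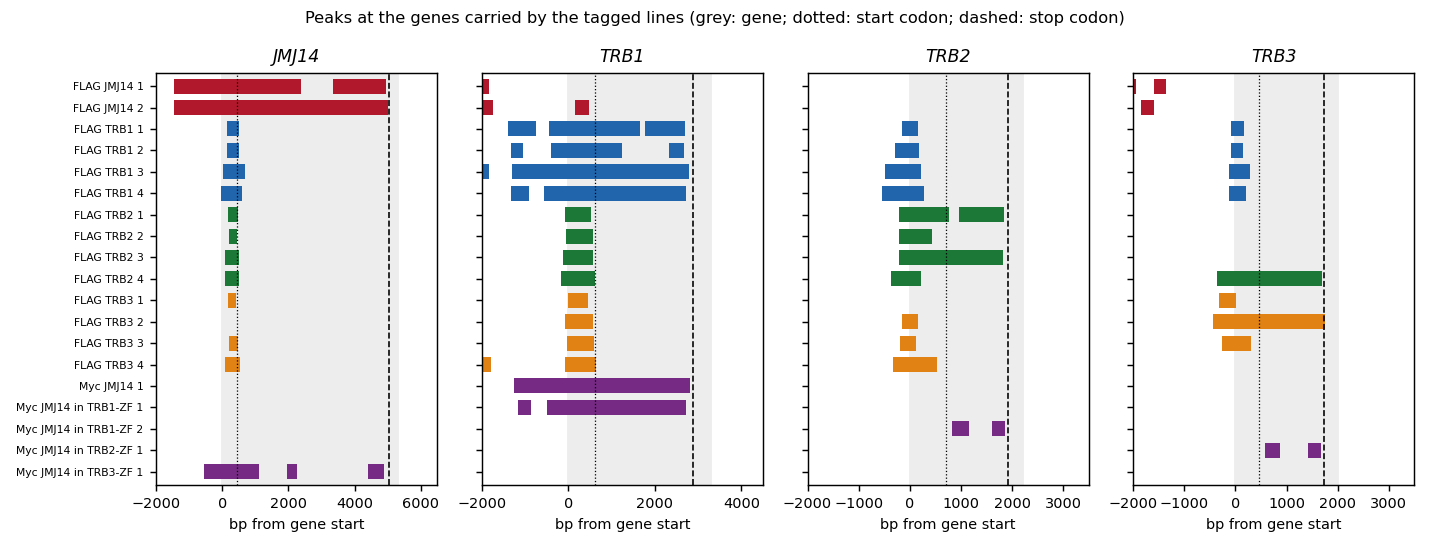
Peaks in the FLAG and Myc lists (rows) at JMJ14, TRB1, TRB2 and TRB3 by distance in bp from the gene start (x axis); grey is the gene, the dotted line the start codon and the dashed line the stop codon. At JMJ14 the FLAG-JMJ14 bars end 96 and 19 bp before the stop codon, while the TRB bars are short, and each Myc row has bars at 1 of the 4 genes.

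Among the 5 Myc lists, broad cover at JMJ14 was seen in 1 only. Peaks were present at 2 of the 7 genes, JMJ14 and NAC050, and both came from the library labelled Myc-JMJ14 in TRB3-ZF, whose peak names give Myc-JMJ14 alone. Without this library the count was 0. Of all protein-coding genes, 8.04% had a peak in at least 1 Myc list. In that library the peaks covered 2457 bp at JMJ14, as 3 intervals from position -559 to 140 bp before the stop codon, and 263 bp at NAC050, with a summit 243 bp after the start. In the other 4 Myc libraries the whole JMJ14 span was without a peak, although all are labelled as carrying Myc-tagged JMJ14. Peaks over TRB genes followed the names in the lists: the libraries labelled Myc-JMJ14 and Myc-JMJ14 in TRB1-ZF replicate 1 covered 96.5% and 83.2% of the cloned span of TRB1, the one labelled TRB1-ZF replicate 2 covered 27.9% of that of TRB2, and the one labelled TRB2-ZF covered 24.3% of that of TRB3. At FWA, the target of the zinc finger, peaks were found in the libraries labelled TRB1-ZF replicate 1 (515 bp) and TRB2-ZF (364 bp).

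Each TRB had peaks at 5 of the 7 genes in at least 2 of its 4 lists, namely JMJ14, JMJ16, JMJ19, NAC050 and NAC052. By the same rule, 66.5% of all protein-coding genes had TRB1 peaks, 51.0% had TRB2 peaks and 37.8% had TRB3 peaks. JMJ15 and JMJ18 had no TRB peak in any of the 12 lists. Leaving out any single list, the mismatched FLAG-TRB2 replicate 4 and FLAG-TRB3 replicate 4 included, left 5 genes for each TRB. With all FLAG lists cut to the length of the shortest (3279 peaks), the counts were 4 for TRB1 and 1 each for TRB2 and TRB3. The share of all protein-coding genes in the shortened lists is not given here. This drop therefore cannot be read as particular to the 7 genes.

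TRB1 covered 375, 357, 647 and 637 bp at JMJ14, with summits 329 to 340 bp after the gene start. TRB2 covered 310, 226, 440 and 434 bp there, and TRB3 covered 235, 0, 272 and 465 bp. The TRB summits at JMJ14 (274 to 367 bp from the start) thus stood beside the strongest FLAG-JMJ14 summits, but in short peaks around the 5′ end. JMJ16, at which FLAG-JMJ14 was all but absent, had TRB peaks upstream, around its first teloboxes, and over its 5′ untranslated region. The upstream peaks lay around the start of AT1G08610, which is on the minus strand, and some of their summits fell inside that gene. They therefore cannot be assigned to JMJ16 alone. Over the whole JMJ16 span, peaks covered 1225, 1240, 1594 and 1493 bp in the TRB1 lists, with the edge of a peak at the 3′ end included in replicates 3 and 4. The lengths were 302, 335, 1255 and 1299 bp in the TRB2 lists, and 0, 686, 710 and 1305 bp in the TRB3 lists. In each TRB1 list, the strongest JMJ16 peak ranked between the 79.7th and 92.6th percentile.

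At NAC050, TRB1 covered 1372, 1200, 1824 and 1647 bp, near the 1619 and 1941 bp of FLAG-JMJ14. At NAC052, TRB1 covered 1230, 974, 1761 and 1804 bp, on both sides of the FLAG-JMJ14 values. TRB2 and TRB3 ranged from 0 to 1464 bp at NAC050 and from 263 to 1333 bp at NAC052. JMJ19 had 234 to 1300 bp under TRB peaks in 11 of 12 lists. In all 11 a peak lay near the gene start, its nearer edge between position -214 and 328 bp after the start. In TRB1 replicate 4 a summit stood 49 bp after the start. In some lists other peaks lay at the 3′ end or, in 3 of the TRB1 lists, over PHT1;4.

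H3K4me3 peaks were present in all 15 lists at 6 of the 7 genes and in none at JMJ15, and 56.3% of all protein-coding genes had a peak in all 15. They lay mostly in the 5′ part of the genes. At JMJ16 the strongest peak had its summit outside the span, at positions -1127 to -1024 in all 15 lists, inside AT1G08610. Part of the length at JMJ16 thus comes from a peak of that neighbour. At JMJ19 the strongest peak had its summit beyond the 3′ end of the gene in some lists, up to 4748 bp from the gene start. Covered lengths over the 15 lists ran from 464 to 765 bp at JMJ14 (median 677), 506 to 1106 bp at JMJ16, 842 to 1807 bp at JMJ18, 527 to 766 bp at JMJ19, 512 to 944 bp at NAC050 and 610 to 1036 bp at NAC052. JMJ18 also carried a separate H3K4me3 peak near its 3′ end, where AT1G30800 lies, in 12 of the 15 lists.

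**Figure D4:**
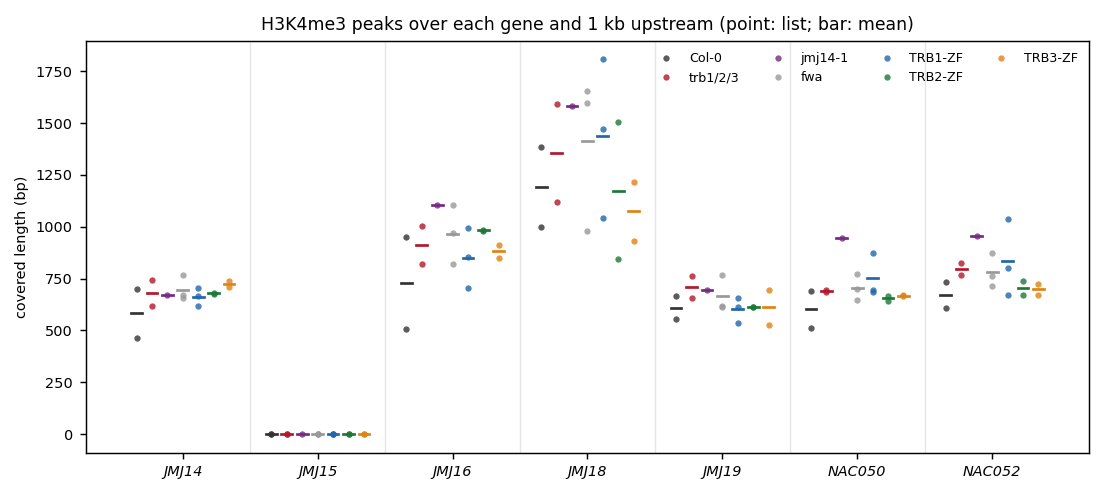
Length in bp under H3K4me3 peaks over each gene and 1 kb upstream (y axis) for the 7 genes (x axis); each point is 1 list and each bar the mean of its group. JMJ15 is at 0 throughout, and the single jmj14-1 list has 944 bp at NAC050 and 956 bp at NAC052, above both Col-0 lists.

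To ask whether H3K4me3 at these genes changed without TRBs, trb1/2/3 (2 lists) was compared with Col-0 (2 lists). NAC052 was the one gene of the 7 with groups that did not overlap. It had 827 and 768 bp in trb1/2/3 against 734 and 610 bp in Col-0, a mean of 797.5 ± 41.7 against 672.0 ± 87.7 (SD, n = 2 each). Among all genes with a peak in these lists, 15.1% were higher without overlap and 2.18% lower, so 1 of 6 marked genes is near the background. NAC050 had 697 and 683 bp in trb1/2/3 against 692 and 512 bp in Col-0, which overlap. JMJ14 had 741 and 616 bp against 701 and 464 bp, and JMJ16, JMJ18 and JMJ19 also overlapped. The JMJ14 difference of 96 bp was 328.0 bp among peaks with a -log10 q of at least 10. Across the 6 marked genes the median difference was 113.0 bp, beside 43 bp over all genes tested. In the exact two-sided permutation test, 2 of the 6 splits of the lists gave a difference as large for NAC052, the fewest this design allows, and the adjusted p was 1 for each gene, so no gene could pass. Leaving out trb1/2/3 replicate 2 or Col-0 replicate 1, the list with the longest Col-0 peaks, gave 6 genes without overlap, against 62.3% and 60.6% of all genes tested in these reduced designs.

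In jmj14-1, 5 of the 7 genes had a longer length under H3K4me3 peaks than in either Col-0 list, as had 57.1% of genes with a peak (2.79% had a shorter one). The 5 were JMJ16, JMJ18, JMJ19, NAC050 and NAC052. With 1 list there is no replicate check. NAC050 had 944 bp in jmj14-1 against 692 and 512 bp in Col-0, a difference from the mean larger than that of 87.9% of genes, and NAC052 had 956 bp against 734 and 610 bp, larger than that of 83% of genes. The NAC052 peak ranked at the 98.6th percentile of fold in the jmj14-1 list, and at the 81.3rd and 54.5th in Col-0. JMJ16 had 1106 bp against 951 and 506 bp, and JMJ18 had 1581 bp against 1383 and 1001 bp, which turned to a lower value in jmj14-1 where lists were cut to equal length. JMJ19 had 694 bp against 665 and 553 bp, but its 5′ peak was 664 bp wide in jmj14-1, and the rest was the edge of a peak centred beyond the 3′ end of the gene. Counting only peaks with their summit in the span, an alternative chosen after seeing the data, JMJ19 lay within Col-0 and the count was 4, against 56.6% of genes. JMJ14 itself had 669 bp, inside the 464 to 701 bp of Col-0. The median difference was 313.0 bp at the 6 marked genes and 122.8 bp over all genes tested. Both mutant comparisons use the same Col-0 lists.

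No difference in H3K4me3 between TRB-ZF and fwa plants passed the test at any of the 7 genes. After adjustment, 0 of the 19369 genes tested passed, and the smallest p this exact permutation test can give is 0.0167. The 7 TRB-ZF lists against the 3 fwa lists gave exact two-sided permutation p-values from 0.2 (JMJ19) to 0.817 (NAC050), with an adjusted p of 1 for each. Of all genes tested, 2.04% had a lower mean and 0.170% a higher mean at an unadjusted p under 0.05. Groups without overlap were as rare, 0.924% lower and 0.0826% higher, and none was among the 7. JMJ14 had 684.4 ± 37.6 bp (SD, n = 7) in TRB-ZF and 697.0 ± 59.2 bp (n = 3) in fwa. NAC052 had 758.3 ± 131.7 against 783.3 ± 82.1 bp (SD, n = 7 and 3). The median difference was -42.4 bp at the 6 marked genes and -27.9 bp over all genes tested. Its highest value, 1036 bp, came from TRB1-ZF replicate 1, the same list that gave the highest NAC050 value of this experiment, 871 bp, because a further peak lay at the 3′ end of NAC050. With libraries paired by replicate number, the blocked count within 7 pairs was also 0.

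H3K27me3 peaks were present in both Col-0 lists at 2 of the 7 genes, beside 31.6% of all protein-coding genes. JMJ15, the gene without H3K4me3, was marked over 1549 and 1516 bp at its 3′ end (from 3206 and 3239 bp after the gene start to beyond the stop codon), far from the FLAG-JMJ14 peaks at its 5′ end. JMJ18 had 213 and 130 bp in Col-0, all upstream and over AT1G30814. The other 5 genes had no H3K27me3 peak in Col-0, trb1/2/3 or fwa, and JMJ16 and JMJ19 had none in any of the 12 lists.

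In trb1/2/3, JMJ15 lost covered length: 477 and 1099 bp remained, against 1549 and 1516 bp, a mean of 788.0 ± 439.8 against 1532.5 ± 23.3 bp (SD, n = 2 each). The groups did not overlap, and in the exact two-sided permutation test 2 of 6 splits gave a difference as large, the fewest possible here, with an adjusted p of 0.506. A decrease without overlap was also the case for 53.3% of genes with a peak in these lists, and 12.6% were higher, so the JMJ15 value is no exception among marked genes. The median difference was -147.5 bp over all genes tested. With peaks of a -log10 q of at least 10 alone, the difference was -1532.5 bp, since none was left in trb1/2/3. JMJ18 had 288 and 234 bp in trb1/2/3 against 213 and 130 bp, higher without overlap. This lay over AT1G30814, was absent within 500 bp of the gene start and turned to -65 bp at the stricter threshold, and it was 154.5 bp with peaks whose summit lay in the span.

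**Figure D5:**
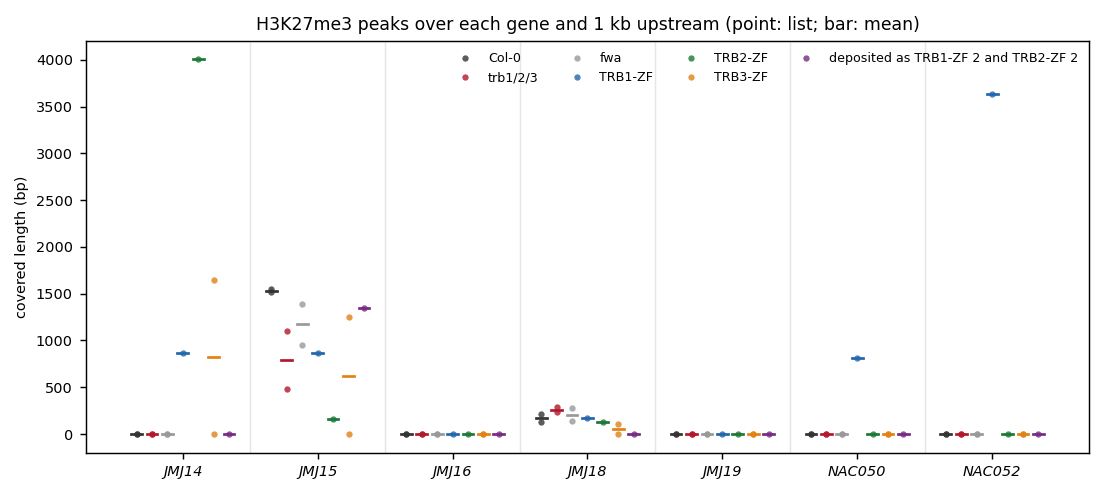
Length in bp under H3K27me3 peaks over each gene and 1 kb upstream (y axis) for the 7 genes (x axis); each point is 1 list and each bar a mean, with the list deposited under 2 labels shown as its own group. JMJ15 falls from 1549 and 1516 bp in Col-0 to 477 and 1099 bp in trb1/2/3, and JMJ14 is above 0 only in 3 TRB-ZF lists, the highest at 4004 bp.

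In the TRB-ZF experiment, H3K27me3 was found over JMJ14 in 3 of the 5 distinct TRB-ZF lists and in neither fwa list. The covered lengths were 870 bp in TRB1-ZF replicate 1, 4004 bp in TRB2-ZF replicate 1 and 1646 bp in TRB3-ZF replicate 1, and 0 bp in TRB3-ZF replicate 2, in the list deposited under 2 labels and in both fwa lists. All 3 positive libraries were thus those numbered 1, and fwa replicate 1 had 0 bp. The peaks lay between 609 and 4930 bp after the gene start, within the transcribed region, and none spanned the promoter. None had a -log10 q of at least 10. The pooled mean was 1304.0 bp higher in TRB-ZF than in fwa, larger than the difference of 99% of the genes tested, with an exact two-sided permutation p of 0.571 and an adjusted p of 0.946. Without TRB2-ZF replicate 1 it was 629.0 bp. Between libraries numbered 1 alone the difference was 2173.3 bp, and between those numbered 2 it was 0, a split chosen after seeing the data. With 5 against 2 lists the smallest possible p is 0.0952, so no gene could pass. A higher value without overlap was found for 3.29% of genes and a lower one for 8.15%, and none of the 7 was in either class. The median difference was 163.0 bp at the 5 genes with a peak and -41.4 bp over all genes tested.

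NAC052 and NAC050 had an H3K27me3 peak in 1 library only, TRB1-ZF replicate 1, in which a single interval covered 3638 bp of the NAC052 span and 815 bp of the NAC050 span. The H3K4me3 library of the same label and number gave the longest H3K4me3 cover of its experiment at both genes. JMJ15 had 957 and 1388 bp in fwa, 869 bp in TRB1-ZF replicate 1, 161 bp in TRB2-ZF replicate 1, 0 and 1249 bp in TRB3-ZF, and 1342 bp in the list under 2 labels. It was lower than the fwa list of the same number in 5 of 5 pairs, as were 15.1% of the genes tested, while the pooled groups overlapped (exact permutation p = 0.381). The higher-value count stayed at 0 with libraries blocked by replicate number.

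Genes of related function give the setting. Among 5 other H3K4 demethylase genes (LDL1, LDL2, LDL3, FLD and JMJ17), FLAG-JMJ14 had peaks in both lists at 2, and TRB1 had peaks at 4. Among 6 other Jumonji demethylase genes (REF6, ELF6, JMJ13, JMJ30, JMJ32 and IBM1), FLAG-JMJ14 had peaks at 0 and TRB1 at 6. Among 10 genes of H3K4 methyltransferases and their COMPASS partners, FLAG-JMJ14 had peaks in both lists at 0 and TRB1 had peaks at 10. All 21 of these genes had H3K4me3 peaks in both Col-0 lists, as had 60.4% of all protein-coding genes. For H3K27me3, 2 of the 21 had peaks in both, against 31.6%. None of the 21 was lower or higher without overlap in H3K4me3 or H3K27me3 of TRB-ZF, against 0.0826% to 8.15% of genes tested, by mark and direction. In the single jmj14-1 list, H3K4me3 was above both Col-0 lists at 4 of the 5, 4 of the 6 and 6 of the 10. It was below both at 0, 0 and 1 of them. The shares of genes tested were 57.1% and 2.79%.

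Over the 46 lists, the covered share of the span varied most alike in JMJ16 and JMJ19 (Pearson's r = 0.894) and in NAC050 and NAC052 (r = 0.789), which share sequence. The most unlike were JMJ15 and JMJ16 (r = -0.576). These lists mix 4 assays, so r mainly reflects which assays mark a gene, and it is given as a description over 46 lists. The genes most like NAC050 were AT2G42450 and RABA5E (AT1G05810), both with r = 0.939, and RABA5E was also the closest to NAC052 (r = 0.75), followed by AT1G77340 (r = 0.722). JMJ14 was most like AT3G28510 (r = 0.856) and AT1G17615 (r = 0.851), which had peaks in only 3 and 8 of the lists against 32 for JMJ14. JMJ15 was closest to AT1G28640 (r = 0.95) and AT2G04810 (r = 0.949), JMJ16 to AT1G19485 (r = 0.987) and TKI1 (AT2G36960, r = 0.986), JMJ18 to AT5G10400 (r = 0.984) and AT5G02430 (r = 0.983), and JMJ19 to AT5G67640 (r = 0.972) and AT5G09760 (r = 0.965).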

How the data were processed

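Per the study's methods, the authors trimmed the reads (Trim_galore), mapped them to the TAIR10 assembly by Bowtie 2 at unique positions without mismatch, dropped duplicates (Samtools), called peaks (MACS2) and filtered peaks that recurred in Col-0 libraries. Which control the calls used is not stated in the methods read here. Each deposited list holds intervals, a score (not used), a fold ratio over background, used for ranks within a list, a -log10 p (not used), a -log10 q and a summit offset, another position value in the deposited files. The other 62 samples of 108 were not used here, and neither were the bisulfite tables.

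Organelle peaks were left out and repeated intervals counted once. Genes came from RefSeq TAIR10.1, whose 5 chromosome lengths hold every peak. Covered lengths were compared by exact two-sided permutation tests over libraries, adjusted (Benjamini-Hochberg) over all protein-coding genes with a peak, in Python 3.11.15 (scipy 1.17.1, numpy 2.4.6, matplotlib 3.10.9 for figures). The code was tested on simulated data. The 7 genes and the lists were chosen with earlier results of these data known, and named genes followed a rule: the 7, the tagged TRB genes, FWA, genes of H3K4 methylation and demethylation, overlapping neighbours and the 2 most correlated genes each. Same-numbered H3K4me3 libraries of the TRB-ZF experiment deviated together (r = 0.675 to 0.89 in 13 pairs). Pairs of other numbers ran from -0.89 to 0.753, the highest being fwa replicate 3 with TRB2-ZF replicate 1, so the numbers do not define the pairs alone. Same-numbered H3K27me3 libraries of the TRB-ZF experiment had r = 0.532 to 0.601 in 6 pairs, with the list under 2 labels taken as TRB1-ZF replicate 2. Those of the trb1/2/3 and Col-0 seedlings had r = -0.0737 in 2 pairs. With 2 libraries per group, both pairs of a comparison give the same r by construction. The number was used as a block. Alternatives were the gene body alone, 500 bp upstream, a stricter q, equal list lengths, a 100 bp overlap, each library left out and the replicate block. For the summit rules, the cloned span with 2 kb and the split by library number, the choice was made after seeing the data.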

Additional observations from a re-analysis of the deposited data

Results flagged for a closer look

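JMJ19 had 1072 bp under peaks in FLAG-TRB3 replicate 4, far above the 267, 346 and 234 bp of the other 3 FLAG-TRB3 lists. This list held 20475 peaks against 3279 to 9547 in those 3, and it had no peak at TRB3. It was the 1 case found in 15 groups of 4 lists with unequal values, and chance gives about 1 in 20.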

How the results depend on the processing

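The FLAG-JMJ14 count of 6 genes fell to no less than 4 under any alternative, and the TRB1 count of 5 to no less than 4. The TRB2 count of 5 was 3 at a -log10 q of at least 10, 1 with lists of equal length and 3 where every list had to have the peak. For TRB3 the same settings gave 2, 1 and 2. The Myc count of 2 was 1 at the stricter q and 0 with lists of equal length. The share of the JMJ14 cloned span stayed within the replicate spread: it was 82.4% and 99.7% with a start 1 kb before the gene and 77.3% and 92.2% with 2 kb, the latter chosen after seeing the data, and the percentile of the JMJ14 fold in replicate 1 moved from 89.4 to 80.3 with a mean weighted by length.

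Leaving out each replicate gave counts of 6 for FLAG-JMJ14, 5 for each TRB and 0 to 2 for Myc. It gave 1 to 6 for H3K4me3 higher in trb1/2/3, against 15.9% to 62.3% of genes tested. For jmj14-1 it gave 5 (58.4% of genes tested) or 6 (95.7%, without Col-0 replicate 1). It gave 1 for H3K27me3 lower in trb1/2/3, against 57.9% to 68.2%, and 0 for both TRB-ZF comparisons. With the replicate block, comparing libraries of the same number, 6 genes were higher in H3K4me3 in trb1/2/3 in both pairs, against 43.2% of all genes tested (0 lower, against 16.5%). The correlation of same-numbered libraries there was 0.445 in both of the 2 pairs, the same by construction with 2 lists per group, and the labels give no shared batch. The block changed none of the other counts in the directions given here, whereas for H3K27me3 lower in TRB-ZF it gave 1 gene (JMJ15, against 15.1% of genes tested) and 0 were lower without overlap. Peaks with their summit in the span gave 1, 4, 1, 0 and 0 genes in the 5 histone-mark comparisons. For the mutants, the shares of genes tested were 15.1%, 56.6% and 43.3%. Values that turned in sign were JMJ18 in H3K4me3 of jmj14-1 with lists of equal length (-167.0 bp) and JMJ18 in H3K27me3 of trb1/2/3 at the stricter q (-65 bp). The cause of these changes was not tested. Depth is unknown, which limits all absences of a peak.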
